A study of Mus musculus with 8 samples.

Results

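Described here are 35 genes of the NRF2 pathway and of oxidant defence in osteoblasts, the bone-forming cells, sorted from mice. They were chosen by gene symbol and role from the 21154 genes of the deposited count table, and all 35 were present. A filter on low counts kept 34 of them among the 15373 genes tested, and Gsta3 was the member left out. They fall into 7 groups by role: the transcription factor and its sensor, glutathione enzymes, thioredoxin and peroxiredoxins, superoxide dismutases with catalase, NADPH and quinone enzymes, heme and iron handling, and metallothioneins.

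The libraries came from female Col2.3-GFP mice, in which a fragment of the Col1a1 promoter drives green fluorescent protein in bone-forming cells. Mice aged 8 to 10 weeks received 4 intravenous injections, 1 week apart, of doxorubicin at 5 mg/kg (DOX, 5 libraries) or of PBS (3 libraries), and GFP-positive cells were sorted from digested bone 8 weeks after treatment. All animals carried the reporter. Titles call the libraries biological replicates, but no label says whether each held the cells of a single mouse, so p-values measure the spread between these libraries. The labels also give a batch, with PBS replicate 1 and DOX replicates 1 and 2 in batch 1 and the other 5 libraries in batch 2. DOX replicate 1 has a title that says DOX and a treatment tag that says PBS, and it was counted by its title. Replicates are called PBS 1 to 3 and DOX 1 to 5 below.

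NRF2, encoded by Nfe2l2, is the transcription factor that switches on much of a cell's defence against oxidants. In unstressed cells the sensor KEAP1 holds NRF2 and marks it for degradation. When oxidants or electrophiles modify KEAP1, NRF2 accumulates, pairs with small MAF proteins and binds antioxidant response elements beside genes for glutathione synthesis, thioredoxin reduction, NADPH supply and iron storage. Doxorubicin carries a quinone group that can cycle electrons to oxygen and form superoxide.

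The core letters of that element, TGACNNNGC, were searched on both strands in the RefSeq promoter windows (build GRCm38.p6, 250 bases before to 50 after each start). Of the 35 members 29 had an entry, and 11 of these 29 (37.9%) held a match, against 14% of all 27025 genes with an entry. The matches of 6 members, from the regulator, glutathione, thioredoxin and NADPH groups, are shown in the sense of the motif, with the 9 matched bases in capitals.
Nfe2l2 (chr2:75704885-75704913, minus strand): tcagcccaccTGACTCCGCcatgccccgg
Gclm (chr3:122245413-122245441, minus strand): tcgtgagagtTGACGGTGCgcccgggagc
Txnrd1 (chr10:82859104-82859132, minus strand): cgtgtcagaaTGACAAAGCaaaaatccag
Srxn1 (chr2:152105542-152105570, minus strand): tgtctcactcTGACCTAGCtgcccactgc
Prdx1 (chr4:116685456-116685484, minus strand): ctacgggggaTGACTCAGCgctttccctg
Me1 (chr9:86695902-86695930, minus strand): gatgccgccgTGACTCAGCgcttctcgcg
The match lay 240 bases before the annotated start in Nfe2l2, 134 before it in Gclm, 92 before it in Txnrd1, 133 before it in Prdx1 and 6 before it in Me1, and 28 bases after it in Srxn1. In Gclm it overlapped 1 match to the metal response letters TGCGCNC. The other members with a match were Gsta3, Sod1, G6pdx, Pgd and Mt2. A match of letters describes the window and does not show that NRF2 binds there.

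Library totals ran from 39419027 to 44299591 counts, and the members together took 0.460% to 0.830% of a library's counts. The 6 osteoblast markers were present in every library and summed to 173700 to 521200 CPM, the counts scaled to depth with TMM library sizes. The genes Col1a1 with Col1a2, the chains of type I collagen, took 19.1% to 39.5% of counts. The libraries differed in this share: PBS 1 (19.1%), DOX 1 (23.2%), DOX 4 (26.0%) and DOX 5 (28.0%) had less collagen than DOX 3 (33.6%), DOX 2 (35.5%), PBS 3 (38.7%) and PBS 2 (39.5%). Markers of red cells summed to 155 CPM in PBS 1 and 110 in DOX 1 and to at most 38.3 elsewhere, and 7 of 7 had a log2 fold change below 0, with 1 at an unadjusted p under 0.05. Markers of reticular stromal cells (Cxcl12, Lepr, Adipoq) summed to 725 CPM in PBS 1, 205 in PBS 2 and 113 in PBS 3, and to 138 to 460 CPM in DOX, and 2 of 3 lay above 0. Macrophage markers summed to 2.27 to 4.39 CPM in PBS and 2.76 to 6.35 in DOX, neutrophil markers to 0.482 to 16.4 and 3.94 to 34.5, endothelial markers to at most 13.3 and 9.21, osteoclast markers to 278 to 359 and 333 to 428, and B cell markers to 1.43 to 8.50 and 0.0496 to 11.2. No marker was at 0 in all libraries. In bulk libraries, fewer cells of a type and less RNA per cell cannot be told apart.

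No member passed the test between DOX and PBS osteoblasts. EdgeR's quasi-likelihood test with batch as a term called 0 of the 34 members at an adjusted p under 0.05, and 0% of all genes tested. At an unadjusted p under 0.05 it listed 0 members, against 3.71% of all genes. The adjusted p of the members ran from 0.995 to 1. DESeq2 called 0.123% of the genes it tested and no member, and at an unadjusted p under 0.05 it listed 1 member, Taldo1, against 4.27% of all genes. Limma-voom with quality weights listed 6 members at an unadjusted p under 0.05, all higher in DOX, against 10.2% of all genes. These were Gpx1, Gpx4, Prdx1, Prdx2, Prdx5 and Taldo1, each with an adjusted p of 0.490. For none of the 34 members did all DOX libraries lie above all PBS libraries, which held for 1.24% of all genes, and for none did they all lie below, which held for 1.19%.

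The intervals of the fold changes bound what these libraries allow. The members' log2 fold changes ran from -0.26 (Gsta4) to 0.24 (Sod1), with 23 above 0 and 11 below it and a median of 0.03, against a median of 0.02 and 53% above 0 over all genes. For 26 of 34 members the 95% interval lay within a 1.5-fold change in either direction, and for 33 it lay within a 2-fold change. The shares over all genes were 39.4% and 63.3%. Counted without DOX 1 the median was 0.05, and with DOX 1 counted as PBS it was 0.08. It was 0.14 without PBS 1, the library with the least collagen. PBS 1 is also the only PBS library of batch 1, so that value rests on batch 2. The median was -0.02 without PBS 2, when 14 members lay above 0. Without DOX 5 it was -0.0042. Members whose promoter window held TGACNNNGC had a median log2 fold change of -0.01 (10 tested, 5 above 0). Those with an entry and no match had a median of 0.05 (18 tested, 16 above 0). The members without a promoter entry had a median of -0.14 (6 tested, 2 above 0). This split is by letters in the window alone and does not separate genes bound by NRF2 from others.

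**Figure D1:**
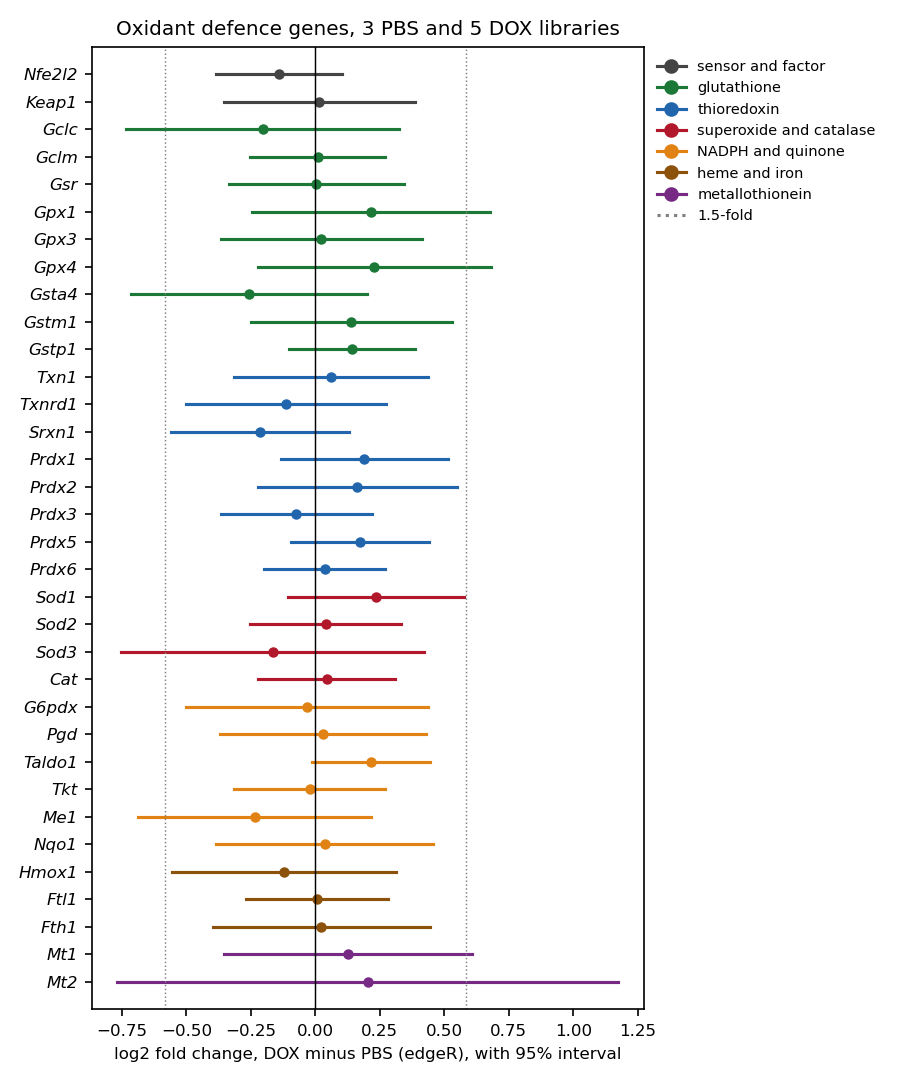
Log2 fold change of the 34 tested members between DOX (5 libraries) and PBS (3 libraries) from edgeR, as points with 95% intervals, coloured by role, with dotted lines at a 1.5-fold change. Every interval crosses 0, and the widest is that of Mt2, from -0.77 to 1.18.

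Levels were divided by the combined length of all annotated exons of a gene, which can exceed that of a single transcript. By this measure the most abundant member in PBS was Gpx3, which encodes the secreted, plasma form of glutathione peroxidase, at 1599.7 CPM per kilobase. It was followed by the ferritin chains Ftl1 (349) and Fth1 (192), then Prdx1 (144), Gpx1 (109) and Gpx4 (74.6). At the low end were Nqo1 (3.99), Sod2 (3.83), Mt2 (3.46) and the subunits of glutamate-cysteine ligase, Gclm (3.20) and Gclc (1.99). Gpx3 alone held 41.6% to 51.2% of the members' counts in each library. The order of these 6 leading genes was the same in all 8 libraries, although Fth1 itself varied 2.14-fold. The order depends on the lengths used. Before division the PBS mean was higher for Fth1 (666 CPM) than for Ftl1 (467 CPM). Sod2, at 38.3 CPM, was divided by 10008 bases.

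The regulators were present in every library. Nfe2l2 stood at 63.8, 56.6 and 62.4 CPM in PBS 1 to 3 and at 52.4, 54.4, 54.1, 54.1 and 60.9 CPM in DOX 1 to 5, and 4 of the 5 DOX libraries lay below every PBS library. The exception was DOX 5. Its estimate was a log2 fold change of -0.14 ± 0.11 (SE), unadjusted p = 0.223 in edgeR's test, with a 95% interval of -0.39 to 0.10. Keap1 stood at 23.0, 33.2 and 32.3 CPM in PBS 1 to 3 and at 24.3, 34.8, 30.5, 25.3 and 31.7 CPM in DOX 1 to 5. Keap1 was lowest in PBS 1 and DOX 1, the groups overlapped, and the log2 fold change was 0.01 ± 0.17 (SE).

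Glutathione, the small thiol that feeds peroxidases and transferases, is made by glutamate-cysteine ligase and kept reduced by glutathione reductase. Of the 9 tested genes of this group 7 had a log2 fold change above 0 and 2 below it, with a median of 0.02. Gclc stood at 13.8, 5.02 and 3.68 CPM in PBS 1 to 3 and at 8.10, 7.37, 4.85, 5.01 and 5.09 CPM in DOX 1 to 5. Gclc, the catalytic subunit, was highest in PBS 1 and then in DOX 1 and DOX 2, the other batch 1 libraries, and had a log2 fold change of -0.20 ± 0.24 (SE), unadjusted p = 0.411 in edgeR's test. Its modifier subunit Gclm varied 1.27-fold, at 19.4, 20.7 and 20.4 CPM in PBS and 16.9, 20.0, 21.5, 21.0 and 21.5 in DOX. Gsr, glutathione reductase, stood at 95.2, 132 and 126 CPM in PBS and 117, 142, 113, 106 and 112 in DOX, with PBS 1 lowest and DOX 2 highest.

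The peroxidases reduce hydrogen peroxide and, in the case of GPX4, lipid peroxides in membranes. Gpx3 stood at 2661, 2738 and 3301 CPM in PBS 1 to 3 and at 2512, 3516, 2799, 2432 and 3452 CPM in DOX 1 to 5. DOX 2 and DOX 5 were its highest libraries and DOX 4 and DOX 1 its lowest, with a log2 fold change of 0.02 ± 0.18 (SE). Gpx1 stood at 229, 113 and 127 CPM in PBS 1 to 3 and at 202, 149, 149.9, 192 and 196 CPM in DOX 1 to 5. Its highest value and its lowest values were both in PBS, and the DOX libraries lay between them (log2 fold change 0.21 ± 0.21 (SE)). Gpx4, highest in DOX 1 and PBS 1 and lowest in PBS 2, stood at 172, 97.1 and 117 CPM in PBS and 193, 117, 119, 169 and 151 in DOX, with a log2 fold change of 0.23 ± 0.20 (SE).

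The glutathione transferases conjugate glutathione to electrophiles. Gstp1 stood at 81.8, 76.3 and 89.3 CPM in PBS 1 to 3 and at 85.6, 87.9, 87.3, 96.1 and 96.5 CPM in DOX 1 to 5. The gene varied 1.26-fold over the libraries, with DOX 4 and DOX 5 highest, and had a log2 fold change of 0.14 ± 0.11 (SE), unadjusted p = 0.229 in edgeR's test. Gsta4 stood at 7.19, 9.49 and 7.68 CPM in PBS 1 to 3 and at 6.63, 6.30, 5.47, 6.21 and 9.03 CPM in DOX 1 to 5. GSTA4 conjugates the lipid peroxidation product 4-hydroxynonenal, and 4 of 5 DOX libraries lay below every PBS library (a log2 fold change of -0.26 ± 0.21 (SE), unadjusted p = 0.24 in edgeR's test). Gstm1 ranged from 46.0 CPM in DOX 3 to 93.3 in DOX 2, with a log2 fold change of 0.14 ± 0.17 (SE). Gsta3, the member left out by the filter, had 0 counts in PBS and 10, 2, 0, 9 and 2 in DOX 1 to 5, or 23 in all. With a floor of 3 counts set in place of 0 over the PBS group, the ratio of DOX to PBS was 4.46. That ratio takes the DOX counts without their error, and most of them came from DOX 1 and DOX 4. DESeq2 gave an unadjusted p of 0.0694 and an adjusted p of 1, so a difference was not shown. Without DOX 1, the library of conflicting labels, that ratio was 3.28. With DOX 1 counted as PBS the groups held 10 and 13 counts, and the ratio was 1.37. Counts of Gstp1, Gstm1 and Gsta3 are uncertain, because close copies of these genes exist and the handling of shared reads is not given.

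**Figure D2:**
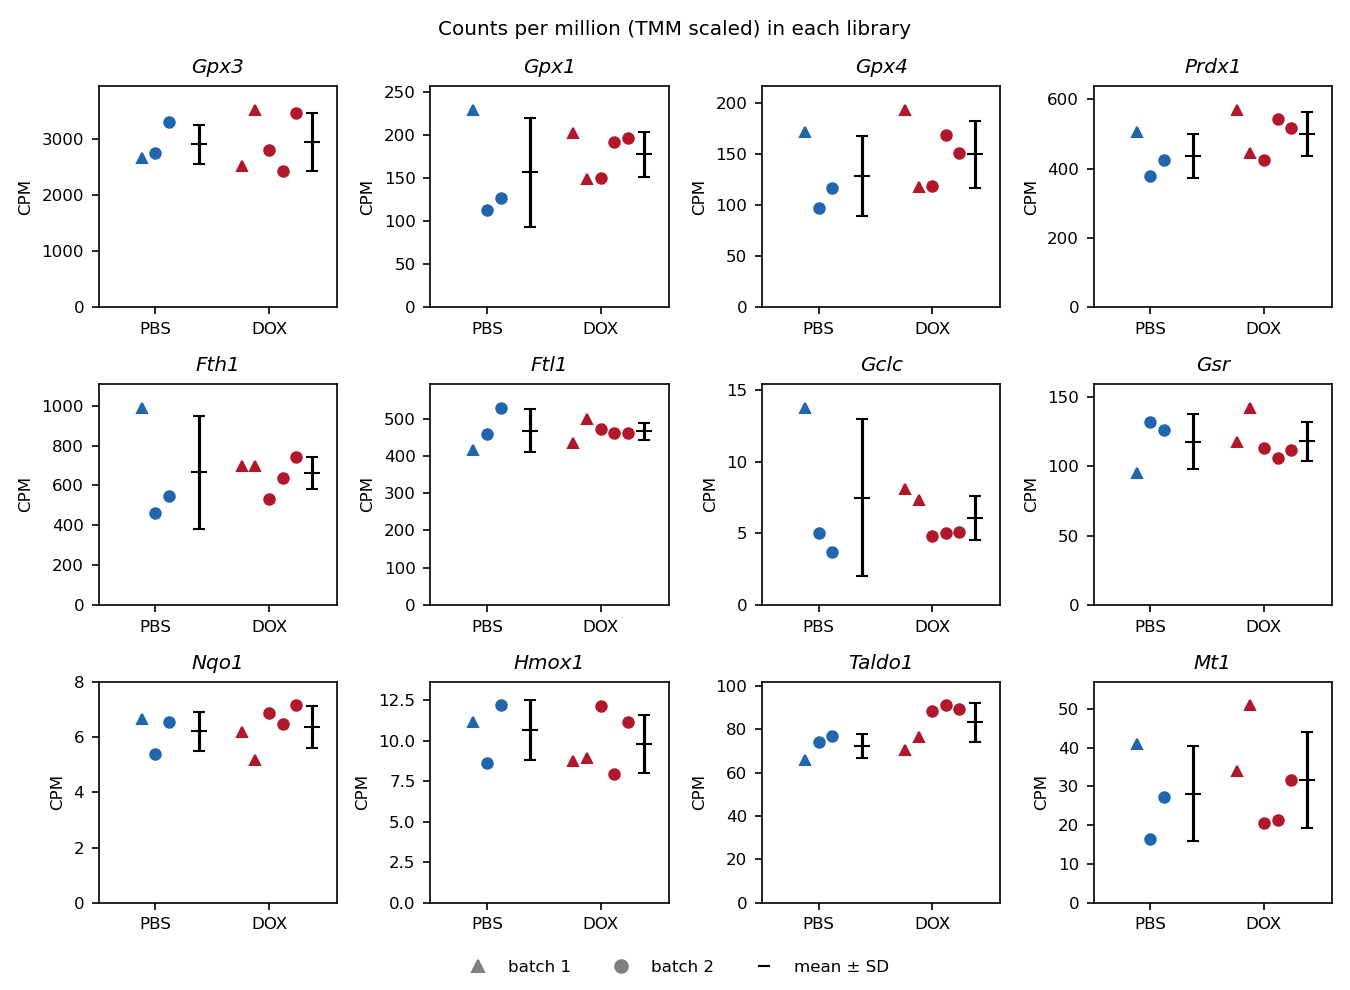
TMM-scaled CPM of 12 members in each library, PBS in blue and DOX in red, triangles for batch 1 and circles for batch 2, with the mean and SD of each group beside the points and axes that start at 0. In Gpx1 and Fth1 PBS 1 lies far above the other PBS libraries, and in Taldo1 the 3 DOX libraries of batch 2 lie above all PBS libraries.

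Thioredoxin and the peroxiredoxins form the other thiol system against peroxides. In this group 5 of 8 genes had a log2 fold change above 0, with a median of 0.05. Prdx1 stood at 506, 379 and 426 CPM in PBS 1 to 3 and at 570.1, 446, 424, 542 and 516 CPM in DOX 1 to 5. Prdx1 encodes an abundant cytosolic peroxiredoxin, and DOX 1, DOX 4 and DOX 5 exceeded every PBS library, with a log2 fold change of 0.19 ± 0.15 (SE), unadjusted p = 0.219 in edgeR's test. Prdx5 stood at 118, 109 and 111 CPM in PBS 1 to 3 and at 122, 109, 123, 143 and 137 CPM in DOX 1 to 5. For this peroxiredoxin of mitochondria and peroxisomes 4 DOX libraries exceeded all PBS values and DOX 2 lay below all 3 (a log2 fold change of 0.17 ± 0.12 (SE), unadjusted p = 0.179 in edgeR's test). Counts of Prdx1 and of the ferritin genes may include reads from processed pseudogenes.

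Other members of the thioredoxin group were spread around 0. Txn1, thioredoxin itself, averaged 72.3 ± 21.2 CPM (SD, n = 3) in controls and 74.9 ± 11.1 CPM (SD, n = 5) after DOX. Its reductase Txnrd1 was at 57.3 ± 10.9 and 52.3 ± 8.94 CPM. Srxn1 stood at 28.4, 19.3 and 19.3 CPM in PBS 1 to 3 and at 19.0, 17.9, 18.9, 18.0 and 22.1 CPM in DOX 1 to 5. Sulfiredoxin, the product of Srxn1, repairs overoxidised peroxiredoxins, and 4 of 5 DOX libraries lay below every PBS library, by little in each case. Its log2 fold change of -0.22 ± 0.16 (SE) turned to 0.04 without PBS 1. The log2 fold change was 0.16 ± 0.17 (SE) for Prdx2, -0.07 ± 0.13 (SE) for the mitochondrial Prdx3 and 0.04 ± 0.11 (SE) for Prdx6, which had the narrowest span of levels of all tested members.

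Superoxide dismutases turn superoxide into hydrogen peroxide, which catalase breaks down. Sod1 stood at 26.0, 20.3 and 23.1 CPM in PBS 1 to 3 and at 33.1, 22.9, 24.5, 30.4 and 25.9 CPM in DOX 1 to 5. Sod1 encodes the cytosolic copper-zinc enzyme, and DOX 1 and DOX 4 were the 2 libraries above every PBS library (a log2 fold change of 0.24 ± 0.15 (SE), unadjusted p = 0.156 in edgeR's test). Sod2, the mitochondrial enzyme, averaged 38.3 ± 5.82 CPM (SD, n = 3) in controls and 39.2 ± 3.02 CPM (SD, n = 5) after DOX. Cat stood at 39.7, 36.6 and 37.6 CPM in PBS 1 to 3 and at 32.9, 38.7, 42.2, 43.1 and 38.5 CPM in DOX 1 to 5, with a log2 fold change of 0.04 ± 0.12 (SE). Sod3, the extracellular enzyme, ranged from 10.7 CPM in DOX 4 to 26.8 in PBS 1, and its log2 fold change was -0.17 ± 0.26 (SE) over all libraries and 0.18 without PBS 1.

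NADPH supplies the electrons for both thiol systems, and the pentose phosphate pathway and malic enzyme are among its sources. Of the 6 genes of this group 3 were above 0 and 3 below it. Taldo1 stood at 65.9, 73.9 and 76.9 CPM in PBS 1 to 3 and at 70.3, 76.5, 88.3, 91.0 and 89.3 CPM in DOX 1 to 5. Taldo1, transaldolase of the pentose phosphate pathway, had the smallest p of all members (a log2 fold change of 0.21 ± 0.10 (SE), unadjusted p = 0.0634 in edgeR's test, 95% interval -0.01 to 0.44), and DOX 3, DOX 4 and DOX 5 exceeded every PBS value. DESeq2 gave it an unadjusted p of 0.0378 and an adjusted p of 1. Of the enzymes that make NADPH in the same pathway, Pgd had 3 DOX libraries above every PBS value and its lowest level in DOX 1, with a log2 fold change of 0.03 ± 0.18 (SE). For G6pdx 2 DOX libraries lay above and 2 below all PBS values (-0.03 ± 0.21 (SE)). Tkt, transketolase, had a value of -0.02 ± 0.13 (SE).

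Me1 stood at 62.1, 88.7 and 119 CPM in PBS 1 to 3 and at 48.4, 80.4, 97.3, 72.0 and 68.6 CPM in DOX 1 to 5. Me1 encodes cytosolic malic enzyme. PBS 3 was its highest library and DOX 1 its lowest, and the fold change was -0.24 ± 0.20 (SE) on the log2 scale (unadjusted p of 0.273). Nqo1, a quinone reductase and a standard readout of NRF2 activity, was low, at 6.67, 5.40 and 6.54 CPM in PBS and 6.16, 5.16, 6.87, 6.47 and 7.14 in DOX. Its log2 fold change was 0.04 ± 0.19 (SE), with an interval of -0.39 to 0.46.

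Hmox1 encodes heme oxygenase 1, which frees iron from heme, and the ferritin chains store that iron. Hmox1 stood at 11.2, 8.62 and 12.2 CPM in PBS 1 to 3 and at 8.73, 8.93, 12.1, 7.94 and 11.2 CPM in DOX 1 to 5, so that the groups overlapped, with a log2 fold change of -0.12 ± 0.20 (SE) whose interval ran from -0.56 to 0.31. Fth1 stood at 991, 463 and 545 CPM in PBS 1 to 3 and at 698, 699.6, 533, 638 and 742 CPM in DOX 1 to 5. PBS 1 alone lay above all DOX libraries, and the other PBS libraries were the lowest and the third lowest of the 8. The ferritin light chain Ftl1 varied 1.28-fold, from 415 CPM in PBS 1 to 529.6 in PBS 3. Group means differed by less than the SD of either group for both chains, at 467 ± 58.0 and 466 ± 23.1 CPM for Ftl1 and 666 ± 284 and 662 ± 81.0 CPM for Fth1.

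Metallothioneins are small cysteine-rich proteins that bind zinc and other metals and scavenge oxidants. Mt1 stood at 40.8, 16.4 and 27.2 CPM in PBS 1 to 3 and at 34.1, 50.9, 20.5, 21.3 and 31.5 CPM in DOX 1 to 5. Mt2 stood at 3.08, 0.982 and 2.04 CPM in PBS 1 to 3 and at 1.98, 3.62, 1.45, 1.29 and 3.28 CPM in DOX 1 to 5. DOX 2 was the highest library for both genes and PBS 2 the lowest, a span of 3.10-fold for Mt1 and 3.69-fold for Mt2. Log2 fold changes were 0.13 ± 0.22 (SE) and 0.20 ± 0.44 (SE).

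**Figure D3:**
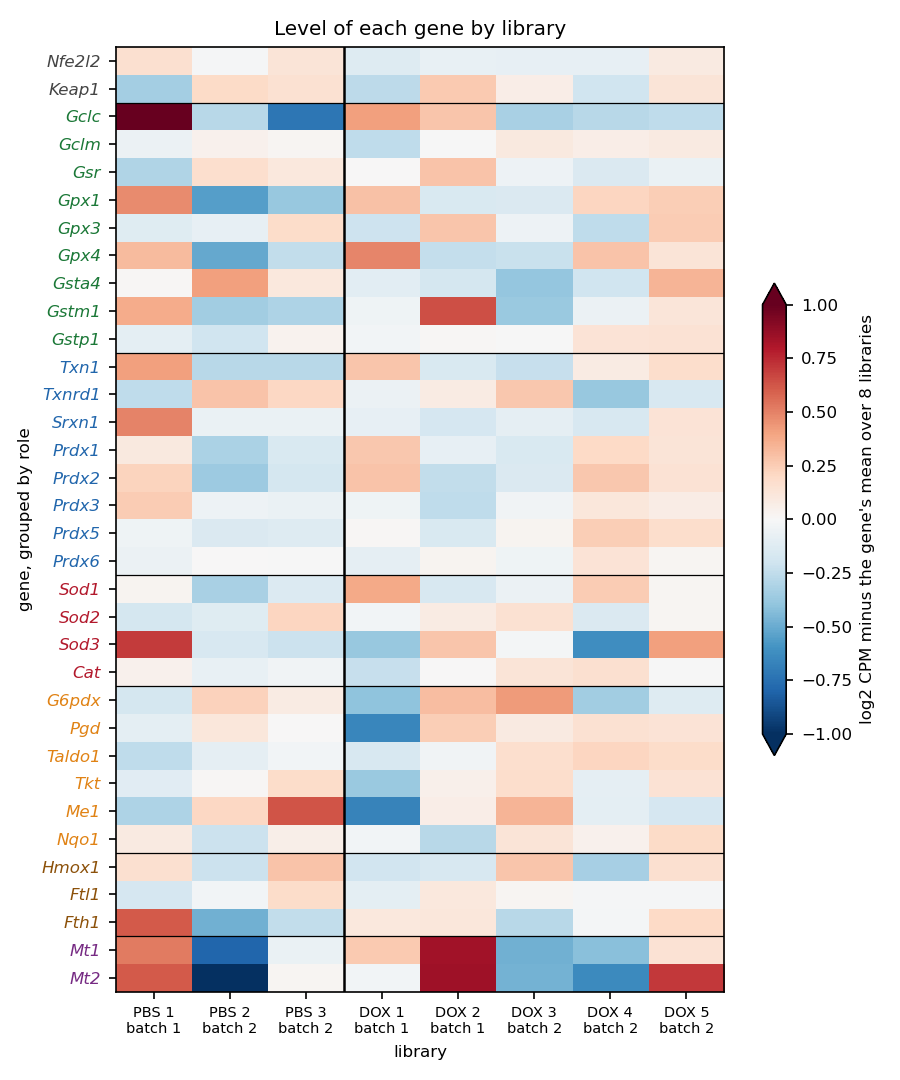
Log2 CPM of each tested member minus its mean over the 8 libraries, with genes in rows by role (label colours as in the plot of fold changes), libraries in columns, PBS left of the line, and colours capped at 1 in either direction. Colours change from library to library more than from group to group, and Gclc in PBS 1 and Mt1 and Mt2 in DOX 2 are among the deepest.

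Within batches the differences often had opposite signs. Of the 34 members 26 (76.5%) turned direction between batch 1, with 1 PBS library, and batch 2, with 2, and 56.9% of all genes tested did so. Of these 26 members 18 were lower in DOX in batch 1 and higher in batch 2. The members' median difference of mean log2 CPM was -0.07 in batch 1 and 0.11 in batch 2. For Gpx1 the difference was -0.40 in batch 1 and 0.57 in batch 2, for Fth1 -0.50 and 0.33, and for Gclc -0.83 and 0.21. Gsr went the other way, at 0.44 and -0.23.

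The change of the group difference between batches was tested as an interaction in edgeR. It called 0 members and 0% of all genes at an adjusted p under 0.05. At an unadjusted p under 0.05 it listed 6 of 34 members, against 11.7% of all genes. These were Gpx1 (0.96 ± 0.30 (SE) on the log2 scale, batch 2 minus batch 1, adjusted p of 0.301), Fth1, Gsr, Gclc, Srxn1 and Prdx3. The batch 1 side of each of these values rests on the single PBS library of that batch, in which collagen was lowest and red cell and reticular markers highest. The part of those differences in the result was not tested.

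In batch 2 alone no member passed the test. All 3 DOX libraries lay above both PBS libraries for 10 of 34 members, against 16% of all genes, and below both for 2, Keap1 and Gsr, against 15.3%. The 10 were Gpx1, Gpx4, Gclm, Txn1, Prdx2, Prdx3, Prdx5, Sod1, Cat and Taldo1. In the edgeR fit of these 5 libraries the log2 fold change was 0.58 ± 0.14 (SE) for Gpx1, adjusted p = 0.314, and 0.46 ± 0.16 (SE) for Gpx4, adjusted p = 0.330. That fit called no gene, and it listed 7 members at an unadjusted p under 0.05, against 12.8% of all genes. In batch 2 the collagen share was 38.7% to 39.5% in PBS and 26.0% to 33.6% in DOX.

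**Figure D4:**
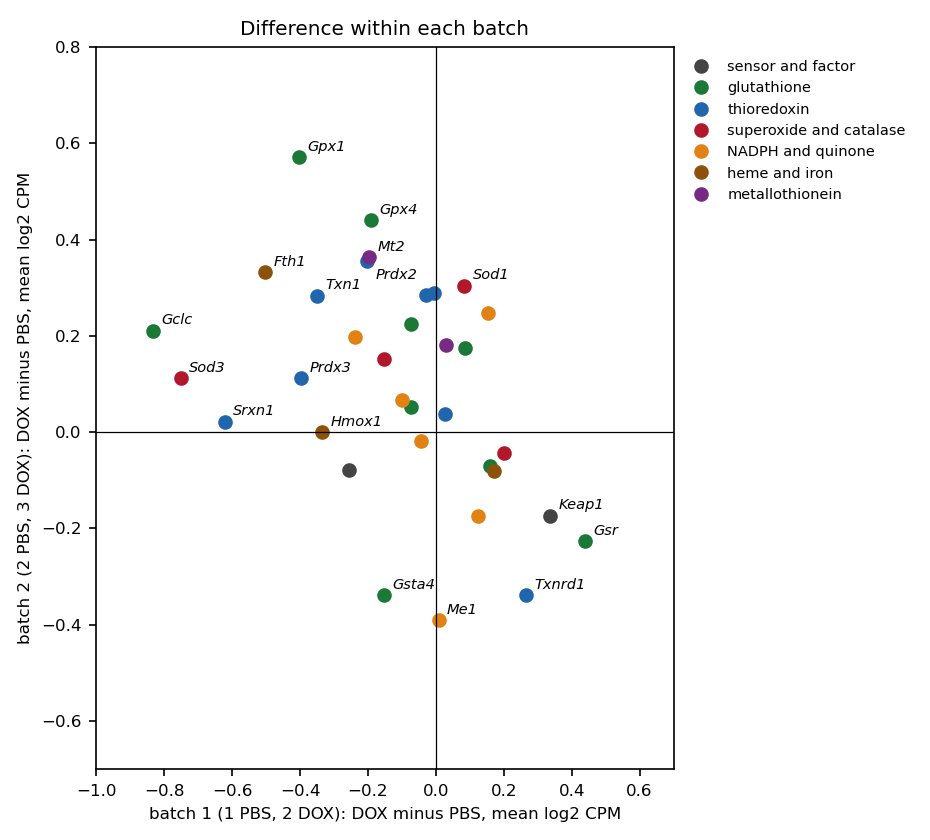
Difference of mean log2 CPM, DOX minus PBS, of each tested member in batch 1 (horizontal axis) and batch 2 (vertical axis), coloured by role. Most points lie in the upper left and lower right of the plot, where the sign differs between batches, among them Gpx1 at -0.40 and 0.57.

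Some members split the libraries by collagen share. For 6 of 34, Gpx1, Gpx4, Txn1, Prdx1, Prdx2 and Sod1, the 4 libraries with the lowest collagen share (PBS 1, DOX 1, DOX 4 and DOX 5) all lay above the other 4. That held for 7.23% of all genes tested. For 3 members, Txnrd1, G6pdx and Me1, those 4 libraries all lay below the others, against 7.94% of all genes. This comparison was chosen after the values were seen. The part of collagen share in these members' levels was not tested. Voom's quality weights were lowest in the batch 1 libraries, at 0.405 to 0.644, against 1.22 to 2.02 in batch 2. In that fit the 6 members of smallest p included Gpx1, Gpx4, Prdx1 and Prdx2.

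Batch itself was tested in the same edgeR fit, a test chosen after the values were seen. It called 0 members and 0.0911% of all genes, and at an unadjusted p under 0.05 it listed 5 members, against 14.6% of all genes. All 3 batch 1 libraries lay above all 5 batch 2 libraries for 2 members, Gclc and Mt1, against 4.38% of all genes, and below them for 1, Gclm, against 4.89%. The log2 difference of Gclc, batch 2 minus batch 1, was -1.02 ± 0.23 (SE) (adjusted p of 0.145). That of Mt1 was -0.84 ± 0.21 (SE) (adjusted p of 0.171).

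Mt1 and Mt2, neighbours on chromosome 8, varied together over the libraries, and the correlation of the other partner genes did not pass the test. Over the 8 libraries the log2 CPM of Mt1 and Mt2 correlated with r = 0.928 (exact permutation p = 0.00181, adjusted over 3 pairs 0.00543) and rho = 0.857 (exact permutation p = 0.0107, adjusted 0.0321). Without PBS 2 and DOX 2, the libraries farthest from the median of Mt1, r was 0.847 (exact permutation p = 0.0444). For residuals from batch and group r was 0.966 (permutation p = 0.000198). Residuals of a fit are not freely exchangeable, so the permutation p of residuals is approximate, here and for the other pairs. All tests were two-sided. Mt2 held 36 to 164 counts in a library, against 602 to 2174 for Mt1. The share of other gene pairs with an r this high was not counted. How reads shared by these genes were handled is not given.

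Gclc and Gclm, which encode the subunits of 1 enzyme, had r = -0.571 (exact permutation p = 0.148, adjusted 0.153) and rho = -0.667 (exact permutation p = 0.0831, adjusted 0.125). Without PBS 1 and DOX 1 the r was -0.303 (exact permutation p = 0.603), and for residuals from batch and group it was 0.295 (permutation p = 0.488). Ftl1 and Fth1, the chains of ferritin, had r = -0.546 (exact permutation p = 0.153, adjusted 0.153) and rho = -0.286 (exact permutation p = 0.501, adjusted 0.501). Without PBS 3 and PBS 1 their r was 0.0537 (exact permutation p = 0.904), and for residuals it was -0.411 (permutation p = 0.300).

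**Figure D5:**
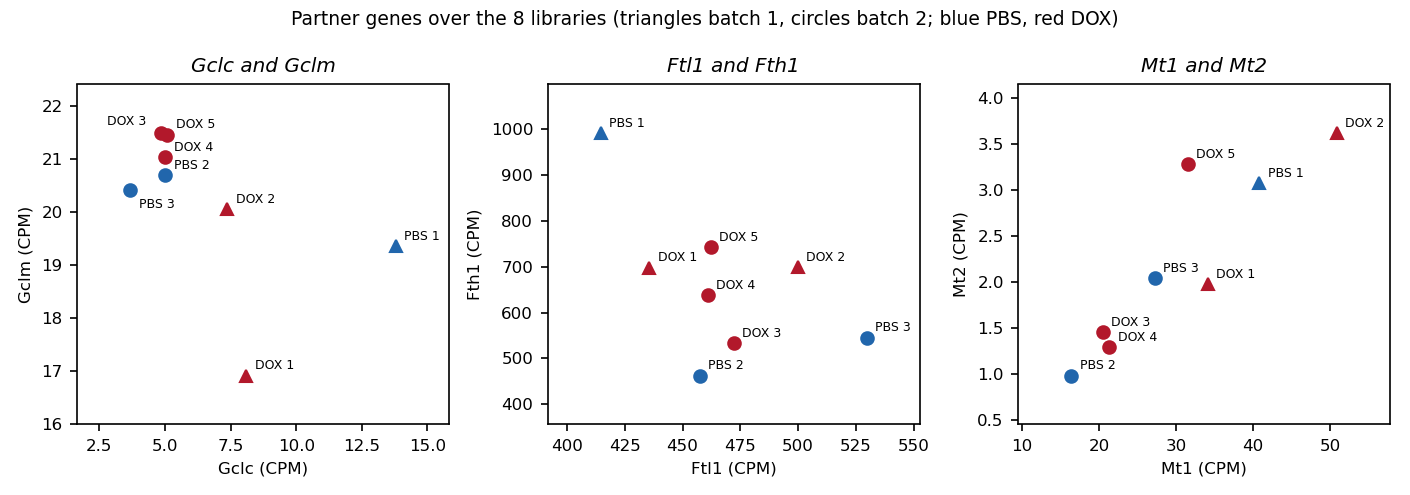
CPM of 3 pairs of partner genes in each library, with the first gene of a pair on the horizontal and the second on the vertical axis, triangles for batch 1, circles for batch 2, blue for PBS and red for DOX. Mt1 and Mt2 lie along a line from PBS 2 to DOX 2, while Fth1 is highest where Ftl1 is lowest, in PBS 1.

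Because these metallothionein genes varied together, the 250 bases before their annotated RefSeq starts (GRCm38.p6) are shown, with matches to the metal response letters TGCACNC and TGCGCNC on either strand in capitals.
Mt1 (chr8:94178839-94179088, plus strand): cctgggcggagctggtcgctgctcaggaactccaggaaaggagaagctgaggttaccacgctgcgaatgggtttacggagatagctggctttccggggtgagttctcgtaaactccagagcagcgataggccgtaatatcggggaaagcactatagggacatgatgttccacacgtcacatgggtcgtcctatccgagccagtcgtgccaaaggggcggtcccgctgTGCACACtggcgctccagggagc
Mt2 (chr8:94172368-94172617, plus strand): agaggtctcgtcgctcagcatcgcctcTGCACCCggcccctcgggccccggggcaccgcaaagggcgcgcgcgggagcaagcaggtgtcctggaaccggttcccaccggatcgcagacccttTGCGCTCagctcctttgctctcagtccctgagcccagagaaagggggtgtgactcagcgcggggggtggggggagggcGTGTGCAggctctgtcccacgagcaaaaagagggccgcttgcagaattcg
The Mt1 stretch held 1 match and the Mt2 stretch 3, none overlapping another, and 21.4% of all 32851 promoter windows held at least 1 such match in the same 250 bases and 1.26% at least 3. In the Mt1 window 2 further matches reached past the annotated start, and in the Mt2 window 1 did. The numbers of matches thus depend on the annotated starts and do not rank the promoters of these genes. The Mt2 stretch also held a TGACNNNGC match, 79 bases before the start, left in lower case here. A match of letters does not show binding, and the part of these matches in the variation of Mt1 and Mt2 was not tested.

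Other genes of these pathways, a list of 53, were also without a call. Of the 50 tested, 29 (58%) had a log2 fold change above 0, against 53% of all genes, and 21 below it. Their median was 0.04, against 0.02 over all genes, and edgeR called none. At an unadjusted p under 0.05 it listed 5 of the 50, 4 of them higher in DOX, against 3.71% of all genes. Sqstm1 stood at 199.9, 199 and 209 CPM in PBS 1 to 3 and at 213, 256, 251, 237 and 259 CPM in DOX 1 to 5. All DOX libraries lay above all PBS libraries for Sqstm1, which encodes the autophagy receptor p62 that binds KEAP1 (log2 fold change 0.27 ± 0.12 (SE), adjusted p of 0.995 in edgeR and 0.998 in DESeq2). The lowest DOX library, DOX 1, lay close to the highest PBS library, PBS 3. Sqstm1 was the 1 gene of the 50 with all DOX libraries above all PBS libraries, which held for 1.24% of all genes. The others were Prdx4 (0.33 ± 0.14 (SE)), the peroxiredoxin of the endoplasmic reticulum, Sesn1 (0.28 ± 0.10 (SE)), a sestrin, Mgst1 (1.13 ± 0.40 (SE)), a microsomal glutathione transferase, and Abcc1 (-0.56 ± 0.19 (SE)), an efflux pump for glutathione conjugates, which was lower in DOX.

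By role, 5 of 12 tested genes of the NRF2 pathway itself were above 0, 12 of 15 of glutathione, 6 of 10 of thioredoxin, 3 of 4 of NADPH, 3 of 7 of heme and iron, and 0 of 2 of metal response. Over all genes 53% were above 0. Within batches, 24 of the 50 were above 0 in batch 1 and 34 in batch 2, and for glutathione 6 of 15 and 15 of 15. Of all 15373 genes tested, 7677 were above 0 in batch 1 and 7948 in batch 2. These differences rest on 1 PBS library in batch 1 and 2 in batch 2. The 3 genes that did not pass the filter on low counts, Slc7a11, Nfe2l3 and Mt3, and Tfrc below were named after their values were seen. Slc7a11 encodes the cystine transporter that feeds glutathione synthesis. Tfrc, the transferrin receptor and also a gene of red cell precursors, stood at 15.5, 5.15 and 4.65 CPM in PBS and 2.61, 5.71, 3.47, 0.439 and 4.78 in DOX (log2 fold change -1.20 ± 0.57 (SE)). It was highest in PBS 1, where red cell markers were highest too (155 CPM). In DOX 1, the library next in red cell markers (110 CPM), Tfrc was lower than in every PBS library. The part of red cells in that difference was not tested.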

How the data were processed

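Raw counts per gene were deposited by the authors for 8 RNA-seq libraries (3 PBS, 5 DOX) made from polyA RNA with SMART-Seq v4 Plus, per the labels' protocols. The submitters' processing notes list, besides build GRCm39, STAR 2.7.9a and featureCounts 2.0.1, with FastQC 0.11.5, Trim Galore 0.6.6, SAMtools 1.17 and MultiQC 1.7. The handling of strand and shared reads was not given in the labels or notes used here. The smallest row total in the table is 10. A kit of this type amplifies full-length cDNA without molecular identifiers, so counts include PCR copies.

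Groups came from titles, with DOX 1 counted as DOX against its treatment tag. EdgeR 4.0.16 (R 4.3.3) was run with filterByExpr by group, TMM scaling, batch and group as terms, and Benjamini-Hochberg adjustment over 15373 genes. The fit was also run on simulated counts with the same spread for all genes and no batch effect. Those settings differ from these libraries, so that run does not bear on the members' results. CPM used TMM-scaled library sizes, and log2 CPM a prior count of 2. Alternatives were DESeq2 1.42.0, limma 3.58.1 (voom), other scaling, filter and batch choices, and leaving out each library. The members and lists were chosen with earlier results of these data known; the regulators and the superoxide group were set apart here by role. Every library is shown for the 5 members of smallest p in each direction and for a leading member of each role. Others shown in full were picked after their values were seen. The leading member was Fth1 by CPM for heme and iron, and Cat by CPM per kilobase for superoxide. By the other measure these were Ftl1 and Sod2. Exon lengths came from GENCODE on GRCm38, and promoter sequence from RefSeq (GRCm38.p6). Replicates differed by more than sampling noise, and no library was counted as a duplicate.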

Additional observations from a re-analysis of the deposited data

Results flagged for a closer look

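Among the 5 DOX libraries, 3 members had 1 library far from the others, by Dixon's ratio of its gap to the group's range, which chance passes in about 1 of 20 groups. At that rate some of the 34 tested members would pass by chance. The share of all genes that passed was not counted. Nfe2l2 stood at 60.95 CPM in DOX 5 (ratio 0.768), above the other 4 DOX libraries and within the range of PBS. Srxn1 stood at 22.06 CPM in DOX 5 (ratio 0.744), also above the other 4. Pgd, a dehydrogenase of the pentose phosphate pathway, stood at 21.79 CPM in DOX 1 (ratio 0.777), the lowest of all 8 libraries, and DOX 1 is the library whose labels conflict.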

How the results depend on the processing

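No alternative called a member, and DESeq2 called 26 genes of all where edgeR called none. Over 17 settings, 12 of 34 members kept the sign of their fold change: Gpx1, Gpx4, Gsta4, Gstm1, Gstp1, Me1, Nfe2l2, Prdx1, Prdx2, Prdx5, Sod1 and Taldo1. The share of all genes that kept their sign was not counted, nor the share whose range below crossed 0. Neither count therefore sets the members apart from other genes. The members' median was 0.14 in batch 2 alone and 0.14 without PBS 1 and DOX 1, and -0.021 to 0.14 with 1 library left out, when 14 to 25 members lay above 0. PBS 1 is the only PBS library of batch 1. Without it batch 1 holds DOX libraries only, and the group term then rests on batch 2. The settings batch 2 alone, without PBS 1 and DOX 1, and without PBS 1 are therefore the same comparison and not separate checks. For residuals from batch and group the correlation of Gclc and Gclm was 0.295, against a negative value over the libraries as they are. The causes were not tested.

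With DOX 1 counted as PBS, the log2 fold change turned sign to 0.11 for Sod3, 0.12 for G6pdx and 0.089 for Tkt. In batch 2 alone, the log2 fold change turned sign to -0.16 for Keap1, 0.20 for Gclc, -0.22 for Gsr, -0.056 for Gpx3, 0.033 for Srxn1, 0.12 for Prdx3, -0.043 for Sod2, 0.18 for Sod3, 0.0065 for Hmox1 and -0.080 for Ftl1. In limma-voom, the log2 fold change turned sign to -0.093 for Keap1, -0.14 for Gsr, 0.039 for Prdx3, 0.0043 for Sod3, 0.015 for Hmox1 and -0.029 for Ftl1. Without a batch term, the log2 fold change turned sign to -0.0086 for Keap1, -0.0033 for Ftl1 and -0.0088 for Fth1. Without the filter on low counts, the log2 fold change turned sign to -0.0022 for Gsr. With the replicate block in place of batch, the log2 fold change turned sign to 0.057 for Gclc, -0.056 for Gclm, 0.018 for Txnrd1, -0.016 for Prdx6, -0.0084 for Cat, 0.063 for G6pdx, -0.11 for Pgd and -0.036 for Nqo1. Without PBS 1 and DOX 1 together, the log2 fold change turned sign to -0.16 for Keap1, 0.20 for Gclc, -0.22 for Gsr, -0.058 for Gpx3, 0.031 for Srxn1, 0.12 for Prdx3, -0.044 for Sod2, 0.18 for Sod3, 0.0050 for Hmox1 and -0.081 for Ftl1. Leaving out 1 library at a time gave a range that crossed 0 for 20 members, -0.16 to 0.096 for Keap1, -0.43 to 0.21 for Gclc, -0.020 to 0.063 for Gclm, -0.22 to 0.091 for Gsr, -0.067 to 0.12 for Gpx3, -0.021 to 0.30 for Txn1, -0.30 to 0.037 for Srxn1, -0.14 to 0.12 for Prdx3, -0.039 to 0.16 for Sod2, -0.36 to 0.18 for Sod3, -0.0037 to 0.16 for Cat, -0.18 to 0.075 for G6pdx, -0.12 to 0.15 for Pgd, -0.086 to 0.036 for Tkt, -0.085 to 0.20 for Nqo1, -0.28 to 0.011 for Hmox1, -0.075 to 0.090 for Ftl1, -0.14 to 0.35 for Fth1, -0.057 to 0.32 for Mt1 and -0.14 to 0.42 for Mt2. For the 12 members of steady sign, leaving out 1 library still changed the size, with ranges of 0.051 to 0.59 for Gpx1, 0.091 to 0.46 for Gpx4, -0.40 to -0.16 for Gsta4, 0.045 to 0.25 for Gstm1, 0.072 to 0.19 for Gstp1, -0.38 to -0.066 for Me1, -0.20 to -0.068 for Nfe2l2, 0.11 to 0.31 for Prdx1, 0.050 to 0.37 for Prdx2, 0.13 to 0.30 for Prdx5, 0.16 to 0.32 for Sod1 and 0.19 to 0.26 for Taldo1. Of these, Gpx1, Gpx4 and Prdx2 were highest without PBS 1 and lowest without PBS 2.

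Replicate numbers shared by the groups did not pair the samples: same-numbered libraries deviated from their group means with correlations of 0.248, -0.054 and 0.245, number 2 joins libraries of different batches, and DOX 4 and DOX 5 have no partner. The fit with the replicate block called 0 genes, as did the fit with batch.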
